A study of Homo sapiens with 18 samples.

Results

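Of the 471 numbered ZNF genes that the arrays measured by name, 192 were near background in untreated U937 cells, and these 192 are described here across 5 drug treatments. A gene entered when its symbol was ZNF, a number and at most 1 further letter, and when its mean log2 level in the 3 control arrays was under 4.5. Where several probe sets carried a symbol, the one with the highest mean over all 18 arrays stood for it. The control mean therefore chose the genes, and every difference from control is given as a description, without a test. Tests were made between treated groups, whose values the threshold did not use. The control arrays still entered the spread that the fit shared over the 6 groups, so the p-values were not free of them. For the 5 members with more than 1 probe set, the treated arrays also helped to choose the probe set. By RefSeq, 190 of the 192 were protein coding and 2 (ZNF733P and ZNF542P) were transcribed pseudogenes.

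Zinc finger proteins of this family mostly bind DNA through tandem C2H2 fingers, each of which contacts a few bases. Many carry a KRAB domain, which recruits the corepressor TRIM28 and through it histone methylation and deacetylation, chiefly at transposable elements; others carry a SCAN domain or no repression domain. Their genes lie in clusters, the largest of them on chromosome 19, and many family members have restricted expression. DNA methylation of the promoter accompanies silencing of a number of them in tumours.

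U937 is a monocytic cell line that was established from a histiocytic lymphoma. Each of the 6 groups had 3 arrays (Affymetrix Human Gene 2.0 ST): untreated cells, each of 3 agents alone (decitabine, panobinostat or valproic acid), and decitabine joined to either of the other agents. Decitabine (5-aza-2'-deoxycytidine) is incorporated into DNA and depletes DNA methyltransferases, and it was given as 3 pulses of 24 h. Panobinostat and valproic acid inhibit histone deacetylases and were present for 24 h, alongside the last pulse in the combinations. Dose figures in the sample names lack units, so the inhibitors were not taken as matched in dose. All groups were the same cell line, and no label tells whether a group's arrays were separate cultures; the p-values therefore reflect variation from array to array, which may be technical. Values were log2 signals after RMA; they ran from 2.29 to 14.57, with array medians of 3.81 to 3.87. All 8 measured genes of a 13-gene myeloid marker list were at 4.5 or more in control (MPO, the granule enzyme myeloperoxidase, at 12.28, and PRTN3 lowest at 4.58). Of other lineages, CD8A (T cell, 4.59), PAX5 (B cell, 4.96) and KLF1 (erythroid, 4.59) were also over 4.5 in control, and TRAT1 (T cell) was at 3.52. The 3 measured epithelial and stromal markers averaged 3.39 to 3.95 per array over the 6 groups. The mean of the myeloid list was 7.86 to 8.0 per control array and 8.85 to 9.04 with decitabine, against 7.52 to 8.56 in the other 4 treated groups. The part of this shift in the results below was not tested. Within the list it was uneven: PRTN3 averaged 4.58 in control and 7.62 with decitabine, whereas MPO averaged 12.28 and 12.31.

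The 192 genes had control means from 3.01 to 4.5, with a median of 3.55. They were chosen by these control means, once 1 probe set stood for each gene. Close to the threshold, ZNF582 (4.483), ZNF341 (4.493) and ZNF155 (4.496) were the last ones inside it, and ZNF707 (4.520), ZNF705D (4.540) and ZNF7 (4.548) the first ones outside. About as many named genes lay under 4.5 in control as above it (49.5% under), so the threshold does not separate an absent transcript from a weak one. The probes of closely related zinc finger genes can share signal, and array signals are compressed near background, so small differences of these genes are uncertain in both identity and size.

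Most of the 192 genes stayed near background in all groups. The median of their group means was 3.55 in control, 3.57 under panobinostat, 3.60 under valproic acid, 3.66 under decitabine, 3.65 when it was joined to panobinostat and 3.68 when it was joined to valproic acid. For the 4932 other protein-coding genes under 4.5 in control, these medians ran from 3.57 to 3.62. In all, 170 of the 192 kept a mean under 4.5 in every group, 22 reached 4.5 in at least 1 treated group, and 6 reached 5. The range of a gene's 6 group means was under 0.5 for 137 genes and 1 or more for 8, with a median of 0.34; the median SD of 3 arrays was 0.15 to 0.19 per group. ZNF841 alone averaged 5 or more with decitabine, and none did with either inhibitor. With decitabine plus panobinostat the 5 genes at that level were ZNF280A, ZNF385A, ZNF841, ZNF532 and ZNF703, and with decitabine plus valproic acid they were ZNF385A, ZNF280A, ZNF841, ZNF703 and ZNF165.

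**Figure D1:**
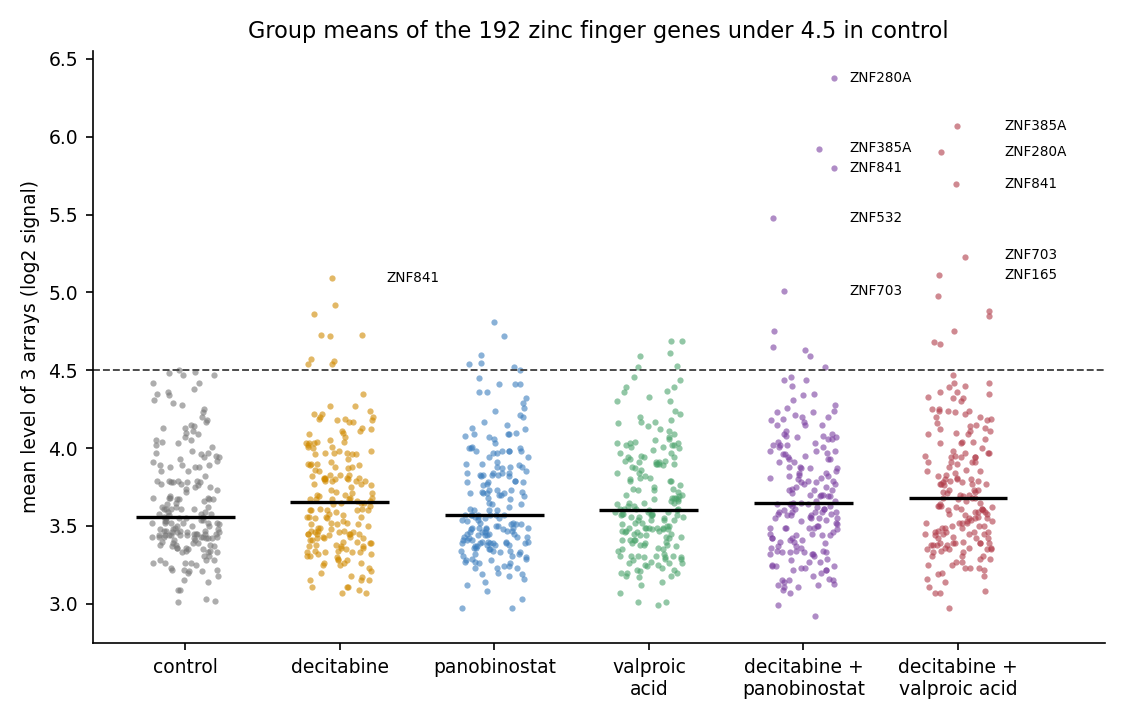
Mean log2 signal of 3 arrays (vertical axis) for each of the 192 genes in the 6 groups; points are genes, spread sideways for visibility, black lines are medians, and the dashed line is the 4.5 threshold that chose the genes in control. Names mark the genes at 5 or more: 1 with decitabine, 5 with each combination and none with an inhibitor alone.

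Set against control as a description, 1 of the 192 genes was at least 2-fold higher with decitabine (0.521%, against 1.30% of all 14884 named genes), and none was with panobinostat or valproic acid (1.63% of all genes with each). With decitabine plus panobinostat 5 were (2.60%, against 4.51%), and with decitabine plus valproic acid 7 were (3.65%, against 3.43%). Among the other protein-coding genes under 4.5 in control the shares were 1.76%, 1.42%, 1.30%, 5.62% and 4.42% in the same order of groups. No gene was 2-fold lower in any group, either among the 192 or among the 4932 other genes under 4.5. Genes this dim had little room to fall: the 192 had a control median of 3.55. Their lowest group means under treatment were 2.92 to 3.07, so the absence of such falls was largely set by the choice of genes. Of all 14884 genes, which include bright ones, 43, 98, 77, 487 and 217 were 2-fold lower. These counts are in the order decitabine, panobinostat, valproic acid and the combinations with panobinostat and with valproic acid. Without control replicate 3 the count with decitabine was 2, so this count rests on 1 control array.

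Adding decitabine to an inhibitor raised a small set of these genes, and the same 4 led with both inhibitors: ZNF280A, ZNF841, ZNF385A and ZNF532. With panobinostat as the background, 12 of 192 were called (limma, Benjamini-Hochberg adjusted p under 0.05), 11 higher and 1 lower, or 6.25% against 9.55% of all genes. With valproic acid as the background, 9 were called, all higher, or 4.69% against 4.03% of all genes. Counting higher calls only, the shares were 5.73% against 5.42% and 4.69% against 2.63%; lower calls with panobinostat were 4.13% of all genes. Among the other protein-coding genes under 4.5 in control, the higher calls were 7.14% and 4.38%, so the share of the zinc finger genes was near that of other dim genes with valproic acid and below it with panobinostat. The median difference over all 192 was 0.02 and 0.04 on the log2 scale, against -0.01 and -0.02 over all genes, so the calls were of single genes in a set that otherwise moved little. Centring each array on its median, which took out a rise of the named genes' median from 4.53 in control to 4.70 with both combinations, gave 8 higher and 4 lower in place of 11 and 1. That centring left 185 members under 4.5, and 1738 of all genes were called in place of 1421. The count with panobinostat was 7 without decitabine plus panobinostat replicate 3 or without panobinostat replicate 1, and that with valproic acid was 5 without valproic acid replicate 3.

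These 2 comparisons share no array. Both called 6 genes higher, ZNF280A, ZNF385A, ZNF532, ZNF562, ZNF841 and ZNF846, which is 54.5% of the 11 and 66.7% of the 9. Over all named genes 303 were shared, 37.6% of 806 and 77.5% of 391. The difference between the 2 comparisons was itself tested in a fit chosen after the data were seen: limma called 0 of the 192 and 0 of all genes, with 10 and 995 at an unadjusted p under 0.05. A gene called with only 1 of the inhibitors was therefore not shown to differ between them.

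**Figure D2:**
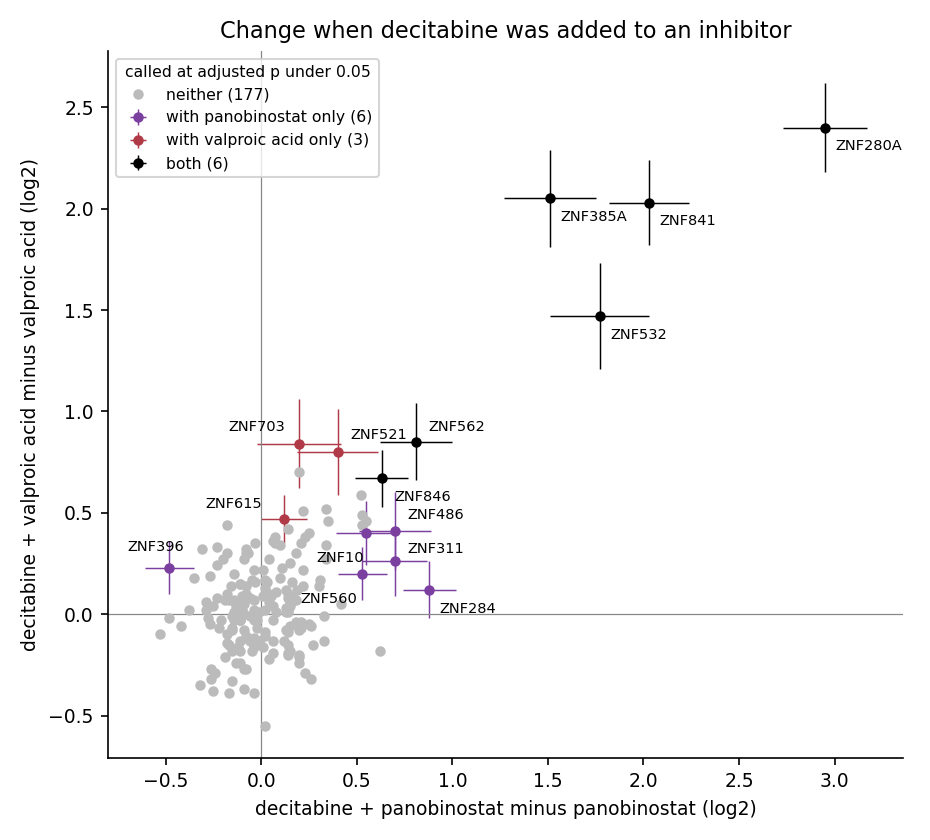
Log2 difference made by adding decitabine to panobinostat (horizontal) and to valproic acid (vertical) for the 192 genes; coloured points are genes called at a limma adjusted p under 0.05, with bars of 1 standard error, and grey points were called in neither. ZNF280A, ZNF841, ZNF385A and ZNF532 lie apart at the upper right, above 1.4 on both axes.

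ZNF280A gave the largest difference of the 192 genes in all 4 comparisons of a combination with one of its agents. It encodes a zinc finger protein of little known function, and its gene lies beside PRAME on chromosome 22. ZNF280A (probe set 16932923) read 3.21, 3.28 and 3.11 in the control arrays, 3.35, 3.50 and 3.45 under panobinostat, 3.75, 3.30 and 3.47 under valproic acid, 3.88, 3.91 and 4.09 under decitabine, 6.37, 6.06 and 6.72 under decitabine joined to panobinostat and 5.26, 6.09 and 6.36 under decitabine joined to valproic acid. All arrays of both combinations were above every other array, and the 3 decitabine arrays were above the control and single-inhibitor arrays. Decitabine plus panobinostat was 7.73-fold above panobinostat (2.95 ± 0.22 on the log2 scale, SE; adjusted p = 2.71e-07, limma) and 5.38-fold above decitabine (2.43 ± 0.22, adjusted p = 5.46e-06). Decitabine plus valproic acid was 5.27-fold above valproic acid (2.40 ± 0.22, adjusted p = 3.4e-06) and 3.85-fold above decitabine (1.94 ± 0.22, adjusted p = 0.000212). Neither the difference between the combinations nor that of decitabine alone from either inhibitor was called.

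ZNF841, a KRAB zinc finger gene in the chromosome 19 cluster, was the one member with a large difference for decitabine alone. ZNF841 (probe set 16875014) read 3.70, 3.52 and 3.98 in the control arrays, 3.79, 3.63 and 3.91 under panobinostat, 3.70, 3.44 and 3.88 under valproic acid, 5.03, 4.95 and 5.29 under decitabine, 6.22, 5.42 and 5.77 under decitabine joined to panobinostat and 5.26, 5.76 and 6.08 under decitabine joined to valproic acid. Every array with decitabine, alone or combined, was above every array without it. Its level with decitabine was 2.48-fold that with panobinostat (1.31 ± 0.21, adjusted p = 0.00107, limma) and 2.67-fold that with valproic acid (1.42 ± 0.21, adjusted p = 0.000595). Adding decitabine gave 4.08-fold with either inhibitor (2.03 ± 0.21 in both, adjusted p = 1.24e-05 and 1.67e-05). Decitabine plus panobinostat exceeded decitabine by 0.72 ± 0.21 (adjusted p = 0.0322). That call was lost without decitabine plus panobinostat replicate 1 (adjusted p = 0.156) or 3 (0.07), or without decitabine replicate 1 (0.0887) or 2 (0.106). It was also lost with arrays centred on the median (0.0545) and with only the 6 arrays compared in the fit. For decitabine plus valproic acid against decitabine ZNF841 was not called.

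ZNF385A encodes an RNA- and p53-binding zinc finger protein first described in blood cells, which steers p53 towards cell cycle arrest genes. ZNF385A (probe set 16765542) read 3.71, 4.31 and 4.52 in the control arrays, 4.22, 4.48 and 4.52 under panobinostat, 4.0, 4.03 and 4.03 under valproic acid, 4.72, 4.77 and 4.66 under decitabine, 5.93, 6.35 and 5.47 under decitabine joined to panobinostat and 5.73, 5.91 and 6.58 under decitabine joined to valproic acid. Both combinations were above all other arrays, while the control arrays overlapped both inhibitor groups. It was 2.85-fold higher with decitabine plus panobinostat than with panobinostat (1.51 ± 0.24, adjusted p = 0.000643, limma) and 4.16-fold higher with decitabine plus valproic acid than with valproic acid (2.05 ± 0.24, adjusted p = 4.27e-05). Against decitabine the combinations were 2.3-fold (1.20 ± 0.24, adjusted p = 0.0023) and 2.56-fold higher (1.36 ± 0.24, adjusted p = 0.00355).

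ZNF532 encodes a partner of the chromatin reader ZMYND8 and is a fusion partner of NUT in NUT carcinoma. ZNF532 (probe set 16852647) read 3.57, 3.50 and 3.20 in the control arrays, 3.79, 3.64 and 3.72 under panobinostat, 3.58, 3.31 and 3.35 under valproic acid, 4.15, 3.93 and 3.70 under decitabine, 5.10, 5.61 and 5.74 under decitabine joined to panobinostat and 4.07, 5.30 and 5.26 under decitabine joined to valproic acid. Replicate 1 of decitabine plus valproic acid stood below the other arrays of both combinations and within the range of the decitabine arrays. Decitabine plus panobinostat was 3.40-fold above panobinostat (1.77 ± 0.26, adjusted p = 0.000338, limma) and 2.94-fold above decitabine (1.56 ± 0.26, adjusted p = 0.000625). The difference of decitabine plus valproic acid from valproic acid was 1.47 ± 0.26 (adjusted p = 0.00273), and 1.87 without that replicate; with only the 6 arrays compared in the fit it was not called (adjusted p = 0.0797). From decitabine it was 0.95 ± 0.26 (adjusted p = 0.0377) over arrays that overlapped, and 1.36 without replicate 1 (adjusted p = 0.00036). The call was lost without replicate 2 (0.16) or 3 (0.173) of the combination, without decitabine replicate 1 (0.057), 2 (0.0883) or 3 (0.135), and with the replicate number as a block (0.0504). It was also lost with only the 6 arrays compared and with the treated arrays alone in the fit.

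ZNF562 and ZNF846, KRAB zinc finger genes, are next to each other among the protein-coding genes of chromosome 19 in RefSeq, and both were called with both inhibitors at smaller sizes. ZNF562 (probe set 16868443) read 3.17, 3.18 and 3.41 in the control arrays, 3.25, 3.46 and 3.47 under panobinostat, 3.05, 3.51 and 3.37 under valproic acid, 3.73, 3.82 and 4.12 under decitabine, 4.71, 3.90 and 4.0 under decitabine joined to panobinostat and 4.16, 3.93 and 4.39 under decitabine joined to valproic acid. ZNF846 (probe set 16868462) read 3.85, 3.69 and 3.79 in the control arrays, 4.06, 4.08 and 3.86 under panobinostat, 4.19, 4.09 and 3.74 under valproic acid, 4.28, 3.77 and 4.10 under decitabine, 4.64, 4.71 and 4.56 under decitabine joined to panobinostat and 4.54, 4.73 and 4.77 under decitabine joined to valproic acid. Both combinations were above all single-inhibitor arrays for both genes; for ZNF562 they overlapped the decitabine arrays, and for ZNF846 they did not. Adding decitabine to panobinostat gave 0.81 ± 0.19 for ZNF562 (adjusted p = 0.013, limma) and 0.63 ± 0.14 for ZNF846 (adjusted p = 0.00762). Adding it to valproic acid gave 0.85 ± 0.19 (adjusted p = 0.0185) and 0.67 ± 0.14 (adjusted p = 0.0099). The ZNF562 calls were lost without decitabine plus panobinostat replicate 1 (adjusted p = 0.059) or panobinostat replicate 1 (0.0614), and without decitabine plus valproic acid replicate 3 (0.0877) or valproic acid replicate 1 (0.0875). Both ZNF562 calls were also lost with only the 6 arrays compared in the fit. The ZNF846 call with valproic acid was lost without valproic acid replicate 3 (0.0585) and with only the 6 arrays compared (0.0904).

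**Figure D3:**
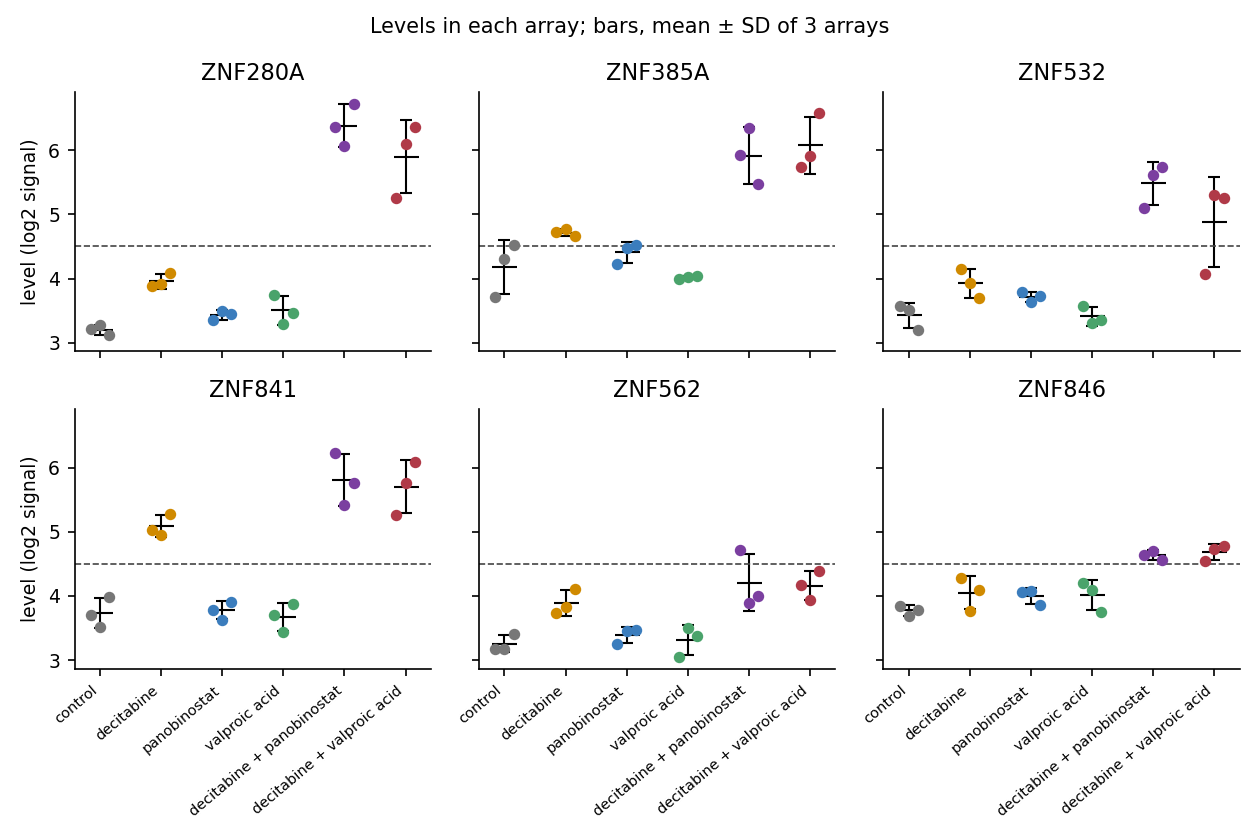
Log2 signal of ZNF280A, ZNF385A, ZNF532, ZNF841, ZNF562 and ZNF846 in each of the 18 arrays, by group; points are arrays, bars are the mean ± SD of 3 arrays, and the dashed line is 4.5. The combinations are the highest groups in every panel, ZNF841 and ZNF385A are also above the line with decitabine alone, and 1 decitabine plus valproic acid array of ZNF532 is at 4.07.

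The promoters of these genes differed widely in CG content, the dinucleotide that DNA methyltransferases modify. The 250 bases before the start that RefSeq lists are shown for 4 of the 6 as examples of a CG-poor promoter (ZNF280A) and of CG-richer ones, in lower case with each CG in capitals. They are at chr22:22520271-22520520 (-), chr19:52095766-52096015 (-), chr19:9675101-9675350 (-) and chr19:9768739-9768988 (-) of GRCh38.p14, each read 5′ to 3′ on the gene's strand.
ZNF280A: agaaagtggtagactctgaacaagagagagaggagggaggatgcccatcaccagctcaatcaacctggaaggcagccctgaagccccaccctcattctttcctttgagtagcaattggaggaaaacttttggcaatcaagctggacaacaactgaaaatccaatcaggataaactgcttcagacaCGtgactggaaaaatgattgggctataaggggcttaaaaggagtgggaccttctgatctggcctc
ZNF841: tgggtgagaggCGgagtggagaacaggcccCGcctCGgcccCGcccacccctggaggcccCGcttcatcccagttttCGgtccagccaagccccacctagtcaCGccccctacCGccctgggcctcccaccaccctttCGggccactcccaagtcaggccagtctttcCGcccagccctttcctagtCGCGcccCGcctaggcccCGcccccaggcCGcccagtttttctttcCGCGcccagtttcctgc
ZNF562: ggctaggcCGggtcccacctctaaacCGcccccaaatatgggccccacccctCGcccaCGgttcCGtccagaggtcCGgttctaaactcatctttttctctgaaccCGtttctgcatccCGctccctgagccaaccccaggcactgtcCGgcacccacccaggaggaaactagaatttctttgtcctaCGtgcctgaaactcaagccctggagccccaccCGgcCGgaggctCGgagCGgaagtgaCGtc
ZNF846: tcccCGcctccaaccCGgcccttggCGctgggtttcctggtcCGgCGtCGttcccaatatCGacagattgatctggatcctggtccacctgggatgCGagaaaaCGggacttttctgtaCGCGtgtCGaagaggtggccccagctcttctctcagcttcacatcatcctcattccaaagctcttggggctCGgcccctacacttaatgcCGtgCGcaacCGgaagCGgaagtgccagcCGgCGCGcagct
The ZNF280A stretch holds 1 CG, an observed over expected ratio of 0.07 for its base composition, whereas those of ZNF841, ZNF562 and ZNF846 hold 17, 15 and 20, with ratios of 0.63, 0.67 and 0.89. ZNF841 has a second listed start, whose 300 bases (250 before and 50 after) hold 6 CG against 22 at the first one. ZNF532 has 5 listed starts with 3, 51, 30, 6 and 6 CG, and which of them was in use was not measured.

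A promoter was listed for 153 of the 192 genes, and the first start listed was taken for each. The median CG count in 300 bases was 19 (0 to 50) for these genes, 23 for the zinc finger genes at 4.5 or more in control and 14 for the other protein-coding genes under 4.5. An observed over expected ratio of at least 0.6 was found in 71.9%, 85.1% and 48% of them. The 17 called in at least 1 tested comparison had a median of 17, and the 136 called in none 19.5. Across the 153 genes the CG count correlated weakly with the change from adding decitabine to panobinostat (r = -0.23) or to valproic acid (r = -0.18), and with the start richest in CG in place of the first one r was -0.11 and -0.10. These correlations are across genes of the same arrays and are descriptions.

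**Figure D4:**
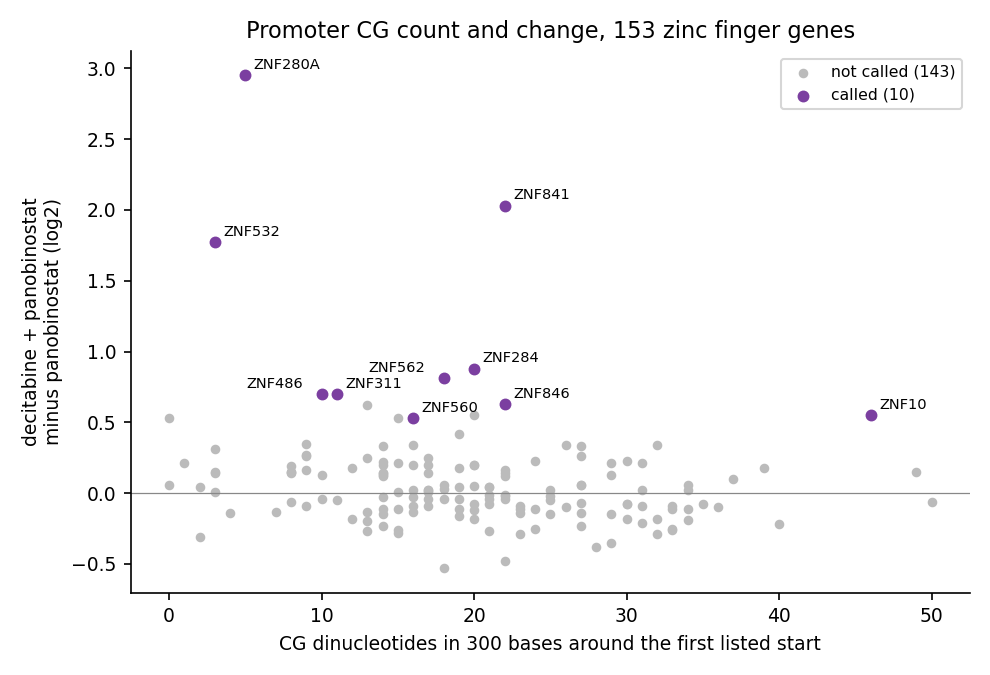
CG dinucleotides in 300 bases around the first listed start (horizontal) against the log2 difference of decitabine plus panobinostat from panobinostat (vertical) for the 153 genes with a listed promoter; purple points are the 10 called genes. Called genes spread from 3 CG (ZNF532, first start) to 46 CG (ZNF10).

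Short motifs were counted on both strands of the same windows. CCGGAAG, the core bound by ETS factors, was in 31.4% of the 153 promoters, 44.2% of those of the expressed zinc finger genes, 5.06% of those of other protein-coding genes under 4.5 and 10.7% of all 27305 promoters. Those of ZNF841, ZNF846 and ZNF284 had it. TATAAA was in 2.61%, against 12% of all promoters, and GGGCGG, the SP1 site, in 59.5% against 44.6%. CCAAT was in 47.7% against 35.7%, AAGATGGC (YY1) in 5.88% against 3.03%, TGACGTCA (the cyclic AMP response element) in 2.61% against 1.98%, and GCGCATGC (NRF1) in 3.92% against 3.27%. Among the 10749 named genes with a promoter, shares were 15% for CCGGAAG, 8.49% for TATAAA, 36% for CCAAT and 4.1% for AAGATGGC. For GGGCGG, TGACGTCA and GCGCATGC they were 60.5%, 2.62% and 4.55%, so these motifs were no more frequent in the 153 than in measured genes. GGGCGG and CCGGAAG contain CG, so their shares move with base composition.

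Genes beside the 6 gave a mixed picture. PRAME, a cancer-testis antigen gene next to ZNF280A, averaged 5.56 in control, 6.35 under panobinostat, 5.87 under valproic acid, 8.17 under decitabine, 8.76 when that was joined to panobinostat and 8.20 when it was joined to valproic acid. Adding decitabine raised it by 2.42 ± 0.23 over panobinostat (adjusted p = 3.11e-06, limma) and by 2.32 ± 0.23 over valproic acid (adjusted p = 6.73e-06), close in size to ZNF280A. Its combinations were not called against decitabine (0.60 ± 0.23, adjusted p = 0.0937, and 0.03 ± 0.23, adjusted p = 0.97), where ZNF280A was. ZNF280B, on the other side, rose by 0.98 ± 0.26 with panobinostat (adjusted p = 0.0226) and gave 0.31 ± 0.26 with valproic acid (adjusted p = 0.639). The 4 nearest protein-coding genes of ZNF841 (ZNF614, ZNF432, ZNF616 and ZNF836) and of ZNF532 (ALPK2, MALT1, SEC11C and GRP) were called in neither comparison.

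Chromosome 19 held 105 of the 192 genes (54.7%), which is 46.5% of its 226 measured ZNF genes. Its genes accounted for 11 of the 24 called in at least 1 tested comparison. Adding decitabine raised 6 of the 105 on chromosome 19 and 5 of the 87 elsewhere with panobinostat, and 4 and 5 with valproic acid. As shares these were 5.71% and 5.75%, against 5.42% of all genes, and 3.81% and 5.75%, against 2.63%. In RefSeq gene order, 13 runs of at least 3 adjacent protein-coding genes were all members, 12 of them on chromosome 19 and 1 on chromosome 7. The 2 longest, ZNF43 to ZNF729 and ZNF610 to ZNF578 with 5 genes each, held no called gene, and their differences with panobinostat lay between -0.20 and 0.20. With valproic acid the differences lay between -0.19 and 0.44 in the first run and between -0.39 and 0.30 in the second. The chromosome 18 members, ZNF521, ZNF396 and ZNF532, were each called in at least 1 comparison. The share of all genes called in at least 1 comparison was not counted. No background therefore stands beside these genes, the 11 of 24 or the runs without a called gene. ZNF521 is a cofactor in blood progenitors, and its call in decitabine plus valproic acid against valproic acid (0.80 ± 0.21, adjusted p = 0.0451, limma) came from overlapping arrays. The call was lost without any 1 of the 3 control arrays (adjusted p = 0.0569 to 0.0589) and without 4 of the 6 arrays compared (0.0752 to 0.185), all but decitabine plus valproic acid replicate 3 and valproic acid replicate 1. It was also lost with only the 6 arrays compared, with the treated arrays alone in the fit and with arrays centred on the median.

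Combinations were also compared with decitabine alone. With panobinostat 9 of 192 were called, 8 higher and 1 lower, or 4.69% against 15.6% of all genes; higher calls were 4.17% against 7.66%, and lower calls were 7.91% of all genes. With valproic acid 7 were called, all higher, or 3.65% against 6.13%, and higher calls alone 3.65% against 3.57%. Centring each array on its median gave 7 higher and 7 lower of 185 members in the first of these, with 2633 of all genes called in place of 2317. The second fell to 4 without decitabine plus valproic acid replicate 2 or decitabine replicate 2 and to 3 without decitabine plus valproic acid replicate 3. ZNF280A, ZNF385A, ZNF532 and ZNF846 were above both of their agents with both combinations (2.08% of the 192, against 0.658% of all genes). This count rests on calls against decitabine with valproic acid that single arrays decide: that of ZNF846 (0.63 ± 0.14, adjusted p = 0.0139, limma) was lost without decitabine plus valproic acid replicate 2 (0.058) or 3 (0.0659) or decitabine replicate 2 (0.0627) and with only the 6 arrays compared (0.0978), and that of ZNF532 as given above. With panobinostat alone as partner this held for 8, adding ZNF284, ZNF311, ZNF560 and ZNF841, of which ZNF311 and ZNF560 are named after their values were seen. The share of all genes above both agents with this combination was not counted, so no background stands beside the 8. Taken singly, 5.42% of all genes were called higher than with panobinostat and 7.66% higher than with decitabine. The ZNF311 call was lost against panobinostat without decitabine plus panobinostat replicate 3 (0.0547), and against decitabine without replicate 1 (0.0581) or 3 (0.0695) of the combination or decitabine replicate 2 (0.0696). That of ZNF560 against panobinostat was lost without decitabine plus panobinostat replicate 2 (0.0818) or 3 (0.0678) or panobinostat replicate 1 (0.0838) or 2 (0.0553). It was also lost with only the 6 arrays compared and with arrays centred on the median. The call of ZNF841 against decitabine was lost as given above.

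**Figure D5:**
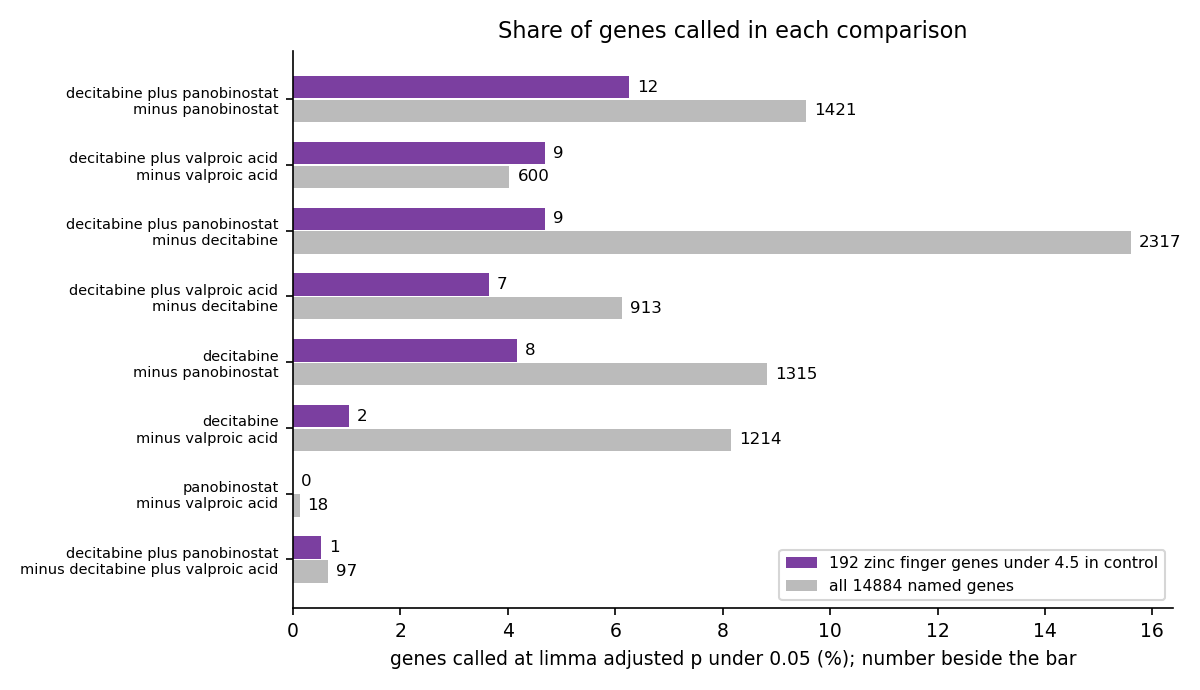
Percent of genes called at a limma adjusted p under 0.05 (horizontal axis) in each of 8 comparisons between treated groups, for the 192 zinc finger genes (purple) and all 14884 named genes (grey); the number called stands beside each bar. The share of the 192 is above that of all genes in 1 comparison, decitabine plus valproic acid minus valproic acid, and below it in the other 7.

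ZNF284, a KRAB gene of a chromosome 19 cluster, was higher with decitabine plus panobinostat than with either agent. ZNF284 (probe set 16862911) read 3.89, 4.11 and 4.13 in the control arrays, 3.93, 3.89 and 3.78 under panobinostat, 4.15, 4.08 and 3.87 under valproic acid, 4.28, 4.01 and 3.84 under decitabine, 4.87, 4.91 and 4.47 under decitabine joined to panobinostat and 4.17, 4.02 and 4.26 under decitabine joined to valproic acid. The decitabine plus panobinostat arrays were above all others, and those of decitabine plus valproic acid overlapped the control, decitabine and valproic acid arrays. Decitabine plus panobinostat was above panobinostat by 0.88 ± 0.14 (adjusted p = 0.000669, limma) and above decitabine by 0.71 ± 0.14 (adjusted p = 0.00234). Against decitabine plus valproic acid it was not called, so a difference between the combinations was not shown. ZNF311 and ZNF560 followed this order at smaller sizes: with decitabine plus panobinostat they read 4.65, 4.44 and 4.69, and 3.79, 4.25 and 4.15, and with decitabine 4.04, 3.86 and 4.01, and 3.58, 3.38 and 3.39.

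ZNF396, a SCAN zinc finger gene, had its highest mean with panobinostat alone. ZNF396 (probe set 16854690) read 3.25, 3.51 and 3.49 in the control arrays, 4.27, 4.14 and 3.86 under panobinostat, 3.63, 3.66 and 3.75 under valproic acid, 3.23, 3.31 and 3.23 under decitabine, 3.84, 3.43 and 3.55 under decitabine joined to panobinostat and 3.83, 4.11 and 3.79 under decitabine joined to valproic acid. All decitabine arrays were below all panobinostat arrays, by 0.83 on average (-0.83 ± 0.13, adjusted p = 0.000858, limma). Decitabine plus panobinostat was below panobinostat too (-0.48 ± 0.13, adjusted p = 0.03). That call was lost without decitabine plus panobinostat replicate 2 (0.121) or 3 (0.0941) or panobinostat replicate 1 (0.141) or 2 (0.0872), and with only the 6 arrays compared. ZNF396 was higher with decitabine plus valproic acid than with decitabine (0.65 ± 0.13, adjusted p = 0.00899). This call was lost without decitabine plus valproic acid replicate 2 (0.0532) and with only the 6 arrays compared (0.0545). ZNF517, also of the KRAB class, was the member that fell from decitabine to decitabine plus panobinostat: it read 4.86, 4.88 and 4.84 and 4.65, 3.94 and 3.99 (-0.67 ± 0.20, adjusted p = 0.0331). That call was lost without decitabine plus panobinostat replicate 2 (0.133) or 3 (0.129) and without decitabine replicate 1, 2 or 3 (0.077, 0.0844 and 0.0757). It was also lost with only the 6 arrays compared and with the treated arrays alone in the fit.

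Decitabine alone differed from panobinostat in 8 of the 192 genes, 5 higher and 3 lower (4.17%, against 8.83% of all genes, of which 4.70% higher and 4.13% lower), and from valproic acid in 2, both higher (1.04%, against 8.16%, or 3.51% higher). ZNF841 and ZNF80 were higher in both, and these comparisons share the decitabine arrays. The ZNF80 call against valproic acid (0.44 ± 0.13, adjusted p = 0.0444, limma) was lost without decitabine replicate 2 (0.188) or 3 (0.145), valproic acid replicate 1 (0.081), 2 (0.137) or 3 (0.0923) or control replicate 1 (0.0519) or 2 (0.0568), and with the replicate number as a block (0.0595). It was also lost with only the 6 arrays compared and with the treated arrays alone in the fit. ZNF80, whose transcript is known to start in a retroviral repeat, read 3.15, 3.67 and 3.53 with decitabine, 2.93, 2.90 and 3.08 with panobinostat and 3.08, 2.92 and 3.03 with valproic acid. ZNF222 and ZNF283, KRAB genes of 1 chromosome 19 cluster, were higher than with panobinostat by 0.43 ± 0.12 (adjusted p = 0.0298, limma) and 0.66 ± 0.19 (adjusted p = 0.0434). ZNF341, which drives STAT3 transcription, was lower by 0.38 (-0.38 ± 0.10, adjusted p = 0.0333), as were ZNF831 (-0.43 ± 0.13, adjusted p = 0.042) and ZNF396. The fifth higher call, ZNF350 (0.67 ± 0.19, adjusted p = 0.0399), came from overlapping arrays and is named after its values were seen. ZNF841 and ZNF396 kept their calls when any 1 array was left out. The others did not: against panobinostat, with single arrays left out, the adjusted p reached 0.185 for ZNF350, 0.121 for ZNF80, 0.118 for ZNF222, 0.157 for ZNF283, 0.141 for ZNF341 and 0.17 for ZNF831, and the count against panobinostat fell to 5, 3 and 2 without decitabine replicates 1, 2 and 3, and to 4, 4 and 3 without panobinostat replicates 1, 2 and 3. The count against valproic acid was 4 without decitabine replicate 2 and 1 without decitabine replicate 3, valproic acid replicate 3 or control replicate 1.

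Few genes in all were called between the inhibitors, alone or joined to decitabine, so the counts among the 192 say little about these genes. Panobinostat against valproic acid gave 0 calls among the 192 with limma (0.121% of all genes), with 11 at an unadjusted p under 0.05. The largest difference was that of ZNF283 (-0.82 ± 0.19, adjusted p = 0.162, limma), whose arrays did not overlap. Decitabine plus panobinostat against decitabine plus valproic acid gave 1, lower (0.521%, against 0.652% of all genes, or 0.282% lower). That gene was the KRAB gene ZNF347, which read 3.25, 3.50 and 3.24 with decitabine plus panobinostat and 3.94, 3.82 and 3.97 with decitabine plus valproic acid (-0.58 ± 0.12, adjusted p = 0.0292). Its arrays did not overlap, yet the call was lost without decitabine plus panobinostat replicate 1 (0.118) or 3 (0.106) or any 1 of the decitabine plus valproic acid arrays (0.123, 0.0742 and 0.0727). With only the 6 arrays compared it was lost as well (0.25).

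ZNF703, a transcriptional corepressor gene amplified in luminal breast cancer, stood above control in every treated group. ZNF703 (probe set 17067890) read 3.72, 3.72 and 4.24 in the control arrays, 4.59, 4.67 and 5.17 under panobinostat, 4.34, 4.44 and 4.40 under valproic acid, 5.07, 4.58 and 4.55 under decitabine, 5.05, 4.52 and 5.46 under decitabine joined to panobinostat and 5.02, 5.25 and 5.40 under decitabine joined to valproic acid. Every treated array was above every control array, which is no test since the control level chose the gene. Among the treated groups it was called in decitabine plus valproic acid against valproic acid (0.84 ± 0.22, adjusted p = 0.0468, limma). The call was lost without any 1 of the 6 arrays compared (adjusted p = 0.0514 to 0.159) and without control replicate 1 or 2 (0.0572 and 0.0566). It was also lost with the treated arrays alone in the fit and with arrays centred on the median. ZNF718, a KRAB gene on chromosome 4, read 3.55, 3.94 and 3.52 in control, 4.30, 4.10 and 4.25 with decitabine and 4.55, 4.77 and 5.23 with decitabine plus valproic acid. Its difference between the last pair was 0.63 ± 0.17 (adjusted p = 0.0386) and was called no longer without decitabine plus valproic acid replicate 2 (0.0822) or 3 (0.188), without decitabine replicate 1 (0.0749), 2 (0.12) or 3 (0.0924), or with the replicate number as a block (0.0506). Nor was it called with only the 6 arrays compared, with arrays centred on the median or with a variance trend.

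Several genes with a high mean in some treated group were called in no tested comparison. ZNF165, a SCAN gene known from testis and tumours, read 4.11, 4.15 and 4.99 in control, 4.83, 3.65 and 3.77 with decitabine plus panobinostat and 5.51, 5.17 and 4.65 with decitabine plus valproic acid, and its second probe set averaged 3.08 to 3.45 over the groups. ZNF582, known for promoter methylation in cervical tumours, read 5.09, 4.44 and 5.22 with decitabine, 3.94, 5.16 and 4.21 with decitabine plus panobinostat and 5.31, 5.49 and 4.15 with decitabine plus valproic acid. For both genes the arrays given here overlapped. ZNF814 read 4.43, 4.12 and 3.61 with valproic acid and 4.64, 5.04 and 4.58 with decitabine plus valproic acid (0.70 ± 0.26, adjusted p = 0.169, limma), and ZNF155 read 4.02, 5.36 and 4.81 with decitabine.

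Of 6 members chosen for promoter methylation known in tumours (ZNF132, ZNF154, ZNF331, ZNF382, ZNF582 and ZNF677), none was called in any of the 8 tested comparisons with limma. Their median difference was 0.22 for decitabine added to panobinostat and 0.08 for decitabine added to valproic acid, beside -0.01 and -0.02 over all genes. ZNF132 had the largest of the former, 0.55 ± 0.32 (adjusted p = 0.348), with 4.20, 3.47 and 5.13 in the combination arrays. Of 12 regulators known for tissue-restricted expression, 1 was higher when decitabine was added to panobinostat (ZNF385A) and 3 when it was added to valproic acid (ZNF385A, ZNF703 and ZNF521), beside 5.42% and 2.63% of all genes. The calls of ZNF703 and ZNF521 were lost without most single arrays, as given above. Both lists were written with the values known, and their counts are descriptions.

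The genes through which KRAB proteins repress were mostly expressed. Of 32 listed, 27 were measured and 26 were at 4.5 or more in control, with a median of 9.15. Adding decitabine raised 1 and lowered 3 with panobinostat, and raised 1 and lowered 2 with valproic acid, with medians of -0.05 and -0.02, beside 9.55% and 4.03% of all genes called in either direction. In decitabine plus panobinostat against decitabine 2 were higher and 8 lower, with a median of -0.19, beside 7.66% of all genes higher and 7.91% lower. In decitabine against panobinostat 5 were higher and 0 lower, with a median of 0.15, beside 4.70% and 4.13%. Both comparisons use the decitabine arrays. Of all genes 49.5% were under 4.5 in control, so their shares are not a matched background for this brighter list. With decitabine added to panobinostat and to valproic acid, SUV39H1, a histone H3 lysine 9 methyltransferase, fell by 1.12 (-1.12 ± 0.14, adjusted p = 8.11e-05, limma) and by 0.82 (-0.82 ± 0.14, adjusted p = 0.00221). CHD3, a remodeller of the NuRD deacetylase complex, fell with panobinostat as the background (-0.92 ± 0.17, adjusted p = 0.0025), and MORC2, a partner of the HUSH silencing complex, rose with both (0.53 ± 0.12, adjusted p = 0.00841, and 0.47 ± 0.12, adjusted p = 0.0307). TRIM28, the corepressor that KRAB domains bind, averaged 10.78 in control, 10.37 under panobinostat, 10.44 under valproic acid, 11.00 under decitabine, 10.32 when that was joined to panobinostat and 10.55 when it was joined to valproic acid. It was lower with decitabine plus panobinostat than with decitabine (-0.67 ± 0.15, adjusted p = 0.00561).

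Over the 5 treated group means, the pattern of the 6 genes called with both inhibitors averaged 3.79 under panobinostat, 3.65 under valproic acid, 4.27 under decitabine, 5.40 when that was joined to panobinostat and 5.23 when it was joined to valproic acid. The named genes whose group means followed it most closely were KDELR3, a receptor that returns proteins to the endoplasmic reticulum (r = 0.9989 over 5 groups), FMR1NB, a cancer-testis gene (r = 0.9987), and PAPSS2, an enzyme of sulfate activation (r = 0.9984). PAPSS2 moved from 3.21 to 3.32 only, so likeness of pattern does not mean likeness of size.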

How the data were processed

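The authors deposited log2 signals of 48226 probe sets, made with RMA per the submitters' processing notes; its version is not given in the sources used here. RMA applies quantile normalization, which gives all arrays 1 distribution. The raw arrays were not used here. Of the probe sets, 16098 had 1 symbol in the platform annotation, all matched to RefSeq by gene identifier, and 32128 had none and were not used. This left 14884 genes, 779 of them with more than 1 probe set. No dim gene was removed.

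One limma 3.58.1 model in R 4.3.3, with 1 mean per group, was fitted to all genes and 18 arrays, with moderated variances; p-values were Benjamini-Hochberg adjusted over all genes in each comparison and called under 0.05. Values are means ± SD or, for differences, ± SE. The self-test recovered planted changes on simulated data. The number of arrays limits the precision. Named genes are up to 5 called members higher and 5 lower per comparison with arrays that did not overlap, the 12 members with the highest mean in a treated group, the 3 genes on each side of the threshold, runs of adjacent members, the 3 genes of most similar pattern and up to 5 called corepressor genes per comparison. ZNF10, ZNF132, ZNF311, ZNF350, ZNF486, ZNF521, ZNF560, ZNF615, the neighbouring genes and the other members of the methylation list were chosen after their values were seen. Members and lists were chosen with earlier results of these data known. Promoter sequences are RefSeq's (GRCh38.p14). No scan date or batch was given. Alternatives were other arrays in the fit, the replicate number as a block, median centring, a variance trend, a filter on dim genes, the mean of probe sets, and leaving out each array.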

Additional observations from a re-analysis of the deposited data

How the results depend on the processing

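No called gene changed direction in any alternative. Of the 48 calls, 20 were kept in every alternative run for that gene: all 4 of ZNF280A and of ZNF385A, 4 of ZNF841, 2 each of ZNF284 and ZNF532, 2 of ZNF846 and 1 each of ZNF396 and ZNF560. The filter on dim genes was run only for members that passed it. It lost none of their calls, so the 20 would be the same without it.

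With only the 6 arrays compared, the calls among the members were 7 in decitabine plus panobinostat minus panobinostat, 4 in decitabine plus valproic acid minus valproic acid, 3 in decitabine plus valproic acid minus decitabine and 0 in the comparison of the combinations. Of all 14884 genes, 938, 261, 177 and 2 were then called, against 1421, 600, 913 and 97 in the main fit. With genes of a mean of 4 or more, where 41 members were tested, the calls among the members were 7 in decitabine plus panobinostat minus panobinostat, 2 in decitabine minus panobinostat, 1 in decitabine minus valproic acid and 0 between the combinations. Of the 8866 genes that passed, 1328, 1357, 1228 and 93 were called. That filter takes the mean over all arrays, so genes such as ZNF280A and ZNF532 pass it through the groups where they are high, and these counts support nothing about the calls. Without the controls in the fit the calls among the members were 5 in decitabine minus panobinostat and 1 in decitabine minus valproic acid. Of all genes 1216 and 1111 were called. That fit called 10 members higher and 1 lower in decitabine plus panobinostat minus panobinostat, and 7 in decitabine plus valproic acid minus valproic acid. Against decitabine it called 8 with panobinostat and 6 with valproic acid. Of all genes 1276, 509, 2164 and 771 were called in these 4 comparisons. Centring on the median gave 14 in decitabine plus panobinostat minus decitabine, and a variance trend gave 2 between the combinations. Of all genes 2633 and 120 were called, and centring left 185 members under 4.5. The causes were not tested.

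Leaving out 1 array gave 7 to 11 calls in decitabine plus panobinostat minus panobinostat, 5 to 8 in decitabine plus valproic acid minus valproic acid, 8 to 10 in decitabine plus panobinostat minus decitabine, 3 to 9 in decitabine plus valproic acid minus decitabine, 2 to 6 in decitabine minus panobinostat, 1 to 4 in decitabine minus valproic acid, 0 to 1 between the combinations and 0 to 0 between the inhibitors. Where it was a control array, the members numbered 189 to 196. Of all genes, the comparisons of a combination with an agent called 882 to 1376, 371 to 565, 1675 to 2245 and 360 to 1227, in that order. The remaining comparisons called 866 to 1297, 733 to 1180, 26 to 109 and 4 to 18. The members at least 2-fold above control were then 1 to 2 with decitabine, 0 to 1 with panobinostat (1 without panobinostat replicate 1 or control replicate 3) and 0 to 1 with valproic acid (1 without valproic acid replicate 1 or control replicate 2), 5 to 7 with decitabine plus panobinostat and 7 to 10 with decitabine plus valproic acid.

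Replicate numbers did not pair the arrays: over 45 pairs of groups and numbers, deviations of same-numbered arrays correlated between -0.11 and 0.10. With the replicate number as a block the counts were 12, 9, 9 and 5 for the combinations against their agents in the order above, 7 in decitabine minus panobinostat, 1 in decitabine minus valproic acid, 0 between the inhibitors and 1 between the combinations. Of all genes 1432, 593, 2288, 870, 1310, 1185, 22 and 118 were called, in the same order.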
